A study of Mus musculus with 18 samples.

Results

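The comparison set C26 tumor-bearing muscle against C26 control muscle, a mouse model of cachexia, the wasting of muscle and fat seen in many cancers. Its members were chosen by sample title: 3 tumor-bearing and 3 control samples, which are 6 of the 18 samples of the series. All 6 came from the tibialis anterior (TA), a limb muscle, of male CD2F1 mice, and the labels call them tumor bearing and non tumor bearing. C26 is a colon carcinoma line that is injected into mice. The protocol gives 2 amounts, 1000000 or 500000 cells, without saying which applied to these mice, and it gives no treatment of the controls. Of each sample, 100 ng of total RNA was hybridized to the nCounter inflammation panel for mouse, which counts color-coded probes bound to RNA and needs no amplification. The other 12 samples are tumor-bearing and control muscle of male C57/B6 mice in 2 further models, LLC (Lewis lung carcinoma cells injected) and KPP (tumors induced with tamoxifen). Samples are named by the letters A to C of the labels. The labels do not say that each sample was a separate mouse, so p-values measure the spread between samples.

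Muscle wasting in cachexia has been tied to circulating cytokines. IL-6 binds its receptor and activates the transcription factor STAT3, and IL-1, TNF and Toll-like receptors signal through NF-kB and through the p38 and JNK kinases. Muscle also holds resident macrophages, fibroblasts, vessels and fat, which supply much of its complement and chemokine RNA. In bulk tissue, fewer cells of a type and less RNA per cell cannot be told apart.

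Besides 6 housekeeping genes the panel's 254 genes included 128 that had a normalized signal of at least 20 in at least 3 of the 6 samples and were tested. The remaining 120 were left out, 88 of them because they were under 20 in all 6 samples. The values at the limit were close together. By the third-highest of the 6 values, Ptgs2 with 20.65 was the lowest gene kept and Ptger4 with 19.35 the highest left out. Cytokines themselves were mostly below the limit: Il6 read 1.3, 3.14 and 2.18 in tumor-bearing samples A to C, against 24.0, 1 and 2.32 in control samples A to C, and Tnf and Il1a stayed under 6 everywhere.

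The depth differed between the groups. The counts behind the gene values numbered 41689, 50785 and 29748 in tumor-bearing samples, against 95050, 75593 and 76770 in control samples, so that a value of 100 carried a counting error of 10.6% to 14.8% in tumor-bearing muscle and 8.98% to 9.28% in control muscle. Control A stood apart. Its Pearson correlation over the 128 genes was 0.80 with control B and 0.71 with control C, while those 2 correlated at 0.93 and the tumor-bearing samples among themselves at 0.95. Control A had the highest of the 6 values in 48 genes, and the median SD on the log2 scale was 0.25 in tumor-bearing samples, 0.54 in control samples and 0.30 in controls B and C alone. What changes without it is given beside the genes and lists below. Mef2c, a muscle transcription factor, was present in all samples: it read 2513 to 3086 in tumor-bearing muscle and 662 to 1920 in control muscle. Myl2, a slow-fiber myosin light chain, read 38.8 to 150.5 in tumor-bearing and 7.9 to 192.2 in control muscle. Its lowest value, 7.9 in control A, was under the filter limit and under the highest negative control probe of that sample, 8.81.

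The housekeeping genes did not keep 1 ratio between the groups. The deposited scaling gives every sample the same geometric mean, 532, over 6 housekeeping genes: the glycolytic enzymes Gapdh and Pgk1, and Cltc, Gusb, Hprt and Tubb5. Gapdh read 13618, 14910 and 16655 in tumor-bearing samples, against 7909, 10538 and 7871 in control samples. Pgk1 read 1969, 1895 and 2446 in tumor-bearing samples, against 1146, 1308 and 1049 in control samples. Both enzymes were thus higher in every tumor-bearing sample than in any control, while Cltc, the clathrin heavy chain, read 1286, 1156 and 1305 in tumor-bearing samples and 1363, 1456 and 2057 in control samples. The log2 ratio of Gapdh and Pgk1 to the other 4 genes, which no scaling can change, was 4.92, 4.98 and 5.38 in tumor-bearing samples, against 3.75, 4.20 and 3.65 in control samples. The difference was 1.23, the groups did not overlap, and the exact permutation test gave p = 0.1 (two-sided), the smallest that 3 against 3 samples allow. In counts before scaling Gapdh overlapped between the groups and Cltc did not. Gapdh had 10490, 13254 and 7650 counts in tumor-bearing samples and 9816, 12594 and 9138 in control samples, and Cltc had 991, 1028 and 599 in tumor-bearing samples and 1692, 1740 and 2389 in control samples.

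**Figure D1:**
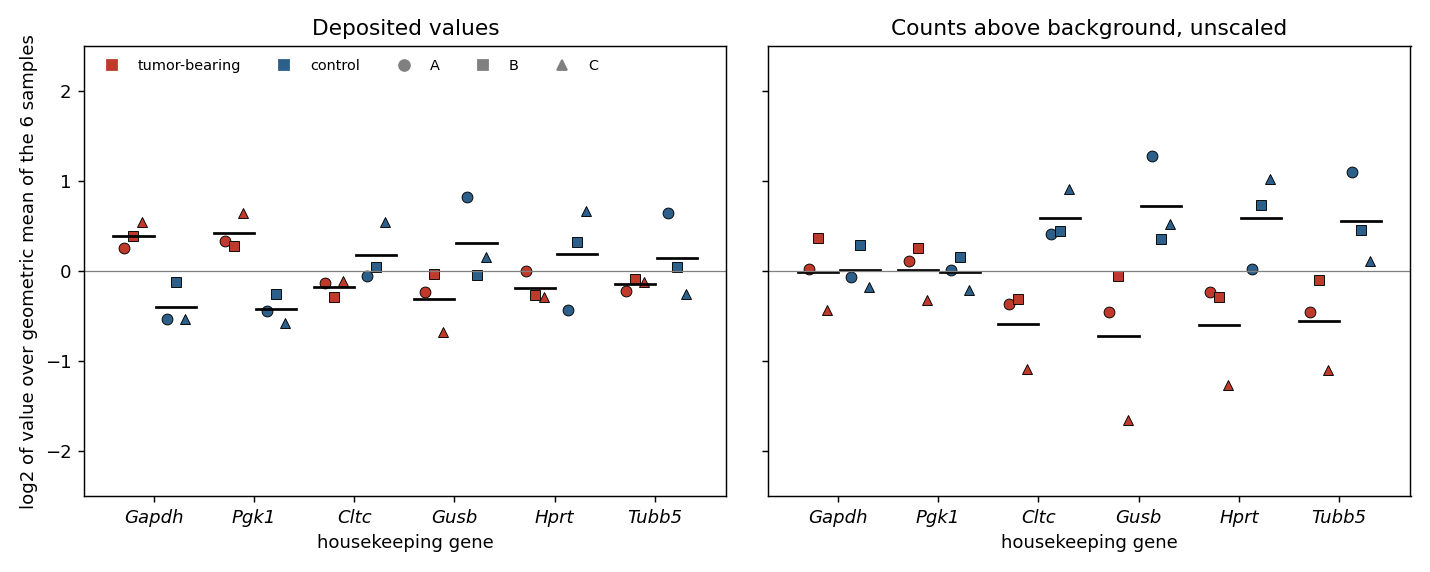
Each point is 1 sample's value of a housekeeping gene, as log2 of the value over the geometric mean of the 6 samples, in the deposited values (left) and in unscaled counts above background (right); tumor-bearing samples are red and left of the blue control samples, and bars are group means. Gapdh and Pgk1 are higher in tumor-bearing muscle at left and overlap at right, where each of the other 4 genes is lower in every tumor-bearing sample than in any control.

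Because of this, the genes were also tested under a scaling to Cltc, Gusb, Hprt and Tubb5, called the scaling to 4 genes below; values with no scaling named are under the deposited one. The median log2 fold change (tumor-bearing over control) of the 128 genes was -0.28 under the deposited scaling and 0.12 under the scaling to 4 genes. With counts scaled to the 4 positive controls, synthetic RNAs added to each assay, it was -1.31. Of the 128 genes, 43 had a fold change above 0 under the deposited scaling and 76 under the scaling to 4 genes, and 33 genes had opposite signs under those 2 scalings. Directions of small changes therefore depend on the scaling.

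The panel holds no measure of tumor burden, so tumor status could not be checked and each direction below rests on the labels. Under the deposited scaling 6 of 128 genes (4.69%) had an adjusted p under 0.05 in limma. Higher in tumor-bearing muscle were 2 genes (1.56%), Map2k6 and Nos2, and lower were 4 (3.12%), Stat3, Cfd, C4a and Maff. Under the scaling to 4 genes 8 genes passed (6.25%), of which 5 were higher (3.91%), namely Map2k6, Nos2, Irf5, Smad7 and Ptgir, and 3 were lower (2.34%), namely Stat3, Cfd and C4a. Stat3, Cfd, C4a, Map2k6 and Nos2 passed under both scalings. With counts scaled to the positive controls the split was 1 higher and 68 lower, and Map2k6 was the one higher. At an unadjusted p under 0.05, 42 genes (32.8%) passed under the deposited scaling, 13 higher (10.2%) and 29 lower (22.7%), and in 54 (42.2%) the groups did not overlap, with 16 higher (12.5%) and 38 lower (29.7%). Under the scaling to 4 genes the split turned: 43 genes (33.6%) had an unadjusted p under 0.05, with 26 higher (20.3%) and 17 lower (13.3%), and 52 (40.6%) did not overlap, with 33 higher (25.8%) and 19 lower (14.8%). Of the genes kept, Nos2 passed the filter through the tumor-bearing samples alone, and Maff and Myd88 through the control samples alone, so that their differences are given as values and support nothing.

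**Figure D2:**
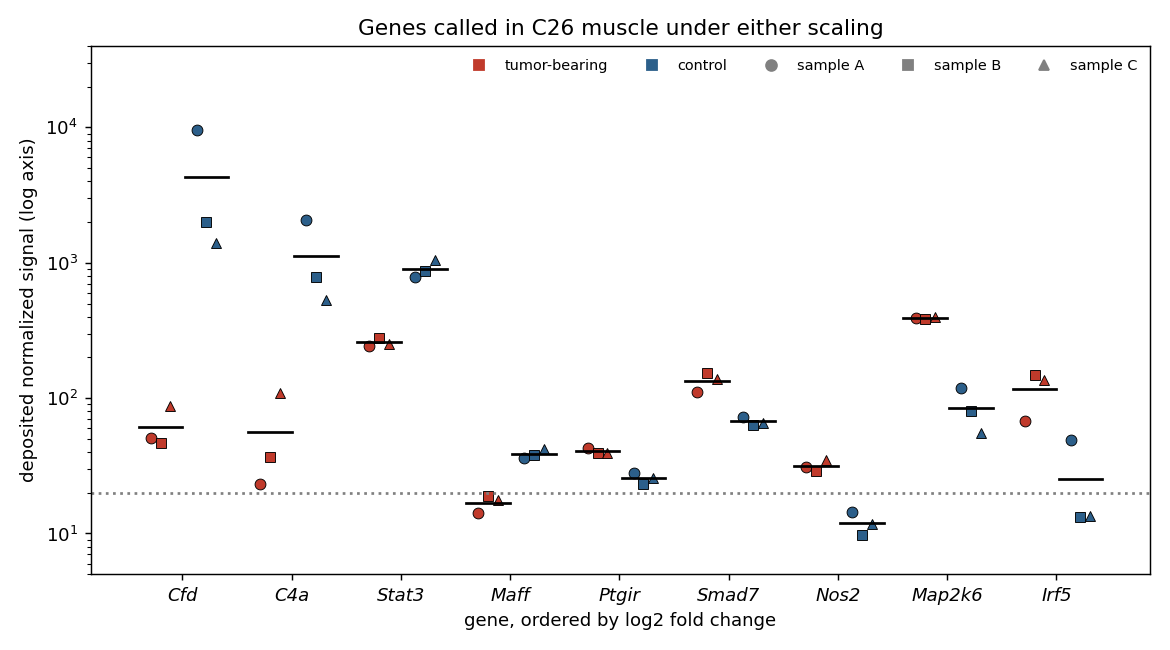
The deposited normalized signal (log axis) of the 9 genes called under either scaling is plotted by sample; tumor-bearing samples are red, control samples blue, markers give the letter, bars are group means and the dotted line is the filter limit of 20. The groups do not overlap in any of the 9 genes, and the control values of Cfd (1389.9 to 9604) spread far more than its tumor-bearing values (47.0 to 87.4), while Nos2 and Maff were kept by the filter through their higher group alone.

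The RefSeq promoters of Stat3, Cfd, Map2k6 and Maff, genes called at the deposited scaling, are shown as the 250 bases before the annotated start (GRCm38.p6). C4a and Nos2 had no entry. The Stat3 window is chr11:100939541-100939790 on the minus strand, and the Cfd window chr10:79890603-79890852 on the plus strand. Map2k6 and Maff have 3 annotated starts each. The windows shown are the first of Map2k6, chr11:110398852-110399101, and the second of Maff, chr15:79347270-79347519, both on the plus strand. Capitals mark motif matches.
Stat3: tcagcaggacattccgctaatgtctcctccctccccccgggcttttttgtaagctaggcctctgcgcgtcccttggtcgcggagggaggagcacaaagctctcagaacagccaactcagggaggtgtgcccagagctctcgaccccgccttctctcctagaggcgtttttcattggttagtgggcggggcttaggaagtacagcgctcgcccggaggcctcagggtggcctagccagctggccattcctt
Cfd: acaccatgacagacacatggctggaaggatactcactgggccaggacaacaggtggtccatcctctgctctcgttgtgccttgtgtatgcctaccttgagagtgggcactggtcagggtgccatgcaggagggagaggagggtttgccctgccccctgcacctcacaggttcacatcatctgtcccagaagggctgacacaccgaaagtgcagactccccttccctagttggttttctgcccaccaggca
Map2k6: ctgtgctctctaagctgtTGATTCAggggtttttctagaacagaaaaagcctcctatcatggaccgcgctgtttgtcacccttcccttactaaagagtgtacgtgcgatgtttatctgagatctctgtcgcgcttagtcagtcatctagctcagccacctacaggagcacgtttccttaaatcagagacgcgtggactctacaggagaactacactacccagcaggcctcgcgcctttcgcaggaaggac
Maff: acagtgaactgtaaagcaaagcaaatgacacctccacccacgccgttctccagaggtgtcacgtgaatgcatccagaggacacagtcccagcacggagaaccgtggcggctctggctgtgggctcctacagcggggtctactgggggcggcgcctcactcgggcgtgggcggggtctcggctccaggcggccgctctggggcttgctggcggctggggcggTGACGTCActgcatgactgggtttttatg
Both strands were searched for 5 motifs: STAT (TTCNNNGAA), AP-1 (TGANTCA), CRE (TGACGTCA), C/EBP (TTGCNNAA) and the TATA box (TATAAA). The Maff window holds a CRE match that begins 29 bases before the start, a motif found in 1.5% of 32851 such windows. The Map2k6 window holds an AP-1 match 232 bases before the start, found in 6.7% of them. The Stat3 and Cfd windows hold none of the 5. STAT, C/EBP and TATA matches occur in 7.0%, 9.6% and 12.4% of the windows. Each share is for 1 motif in 1 window. For Maff and Map2k6 5 motifs were searched in 3 windows each, so some match is more common than these shares. Of the windows not shown, the first of Maff holds a C/EBP match and the third of Map2k6 a TATA match, and those of Irf5 and Ptgir hold none.

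Stat3, the transcription factor downstream of the IL-6 receptor, had a signal of 244, 279 and 251 in tumor-bearing samples A to C, against 787, 877 and 1048 in control samples A to C. All tumor-bearing values lay together and far below the lowest control. Stat3 averaged 258 ± 18.5 in tumor-bearing and 904 ± 133 in control muscle (SD, n = 3 each). It fell 3.48-fold, with a log2 fold change of -1.80 ± 0.22 (SE) and an adjusted p of 0.014, and under the scaling to 4 genes its log2 fold change was -1.39 (adjusted p = 0.026). Over 18 alternative settings it ran between -2.83 and -1.31 with adjusted p between 0.00012 and 0.089, and 13 of them kept the call. Without control A it was -1.89. Relative to the median gene Stat3 lay at -1.52.

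Cfd, complement factor D or adipsin, is a serine protease of the alternative complement pathway made chiefly by fat cells. Its signal was 50.5, 47.0 and 87.4 in tumor-bearing samples, against 9604, 2003 and 1389.9 in control samples. Control A had the most, and even the lowest control lay well above every tumor-bearing sample. Cfd fell 49.7-fold (log2 fold change -5.63 ± 0.74, adjusted p = 0.014), and its log2 fold change was -5.23 under the scaling to 4 genes and, without control A, -4.79 (adjusted p = 0.0023; 1.9e-05 to 0.089 over 18 alternatives). It is the only fat cell marker listed here, and the part of fat content in the sample was not tested.

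C4a, a complement C4 gene listed here with the classical pathway, read 23.2, 36.9 and 109 in tumor-bearing samples and 2057, 787 and 529 in control samples. The activity of its product in that pathway was not tested. Tumor-bearing C and control A were the highest of their groups, which did not overlap. C4a fell 20.4-fold (log2 fold change -4.35 ± 0.72, adjusted p = 0.025). Under the scaling to 4 genes the log2 fold change was -3.95, and without control A it was -3.79. C4a has a near-identical copy, C4b, in the mouse genome, and how far the probe separates them was not tested.

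Map2k6, the kinase that activates p38, ran the other way. Its signal was 393, 382 and 401 in tumor-bearing samples, against 119, 80.9 and 54.9 in control samples. The tumor-bearing values were nearly equal, and the controls were all lower. Map2k6 averaged 392 ± 9.4 in tumor-bearing and 85.0 ± 32.3 in control muscle (SD, n = 3 each), and rose 4.80-fold (log2 fold change 2.26 ± 0.32, adjusted p = 0.014). It was higher in counts too, with 303, 340 and 184 counts in tumor-bearing samples against 148, 97 and 64 counts in control samples, although the tumor-bearing samples held fewer counts in all. The log2 fold change was 2.67 under the scaling to 4 genes and 2.54 without control A, and 14 of 18 alternatives kept the call.

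Nos2 and Maff, the remaining genes called at the deposited scaling, were weak signals. Nos2, the inducible nitric oxide synthase, read 31.0, 29.0 and 35.1 in tumor-bearing samples and 14.3, 9.79 and 11.8 in control samples, all controls being under the filter limit, so that the gene was tested only because of its tumor-bearing values. Its log2 fold change was 1.34 ± 0.23 (adjusted p = 0.027), which rests on 24, 26 and 16 counts in tumor-bearing samples against 18, 12 and 14 counts in control samples, groups that overlap before scaling. Scaled to the positive controls its log2 fold change was 0.36 (adjusted p = 0.45, the highest over 17 alternatives; lowest 0.00012). Maff, a small stress-inducible Maf transcription factor, read 14.2, 18.9 and 17.7 in tumor-bearing samples, against 36.1, 38.2 and 41.9 in control samples. Here all tumor-bearing values were under the limit, and the gene was tested only because of its control values. Its log2 fold change was -1.16 ± 0.22 (adjusted p = 0.036), and -0.76 under the scaling to 4 genes, where Maff did not pass (adjusted p = 0.089; 0.0028 to 0.17 over 17 alternatives, of which 2 kept the call).

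Irf5, Smad7 and Ptgir passed under the scaling to 4 genes and not under the deposited one. Irf5, an interferon regulatory factor of macrophages and other immune cells, read 67.4, 148 and 135 in tumor-bearing samples and 49.0, 13.1 and 13.5 in control samples. Control A was the nearest to the tumor-bearing range. In counts before scaling the Irf5 groups overlapped, with 52, 132 and 62 in tumor-bearing samples against 61, 16 and 16 in control samples. The log2 fold change was 2.36 (adjusted p = 0.059) under the deposited scaling and 2.76 (adjusted p = 0.042) under the scaling to 4 genes. Scaled to the positive controls it was 1.36, without a call (adjusted p = 0.055). Smad7, the inhibitory SMAD of TGF-beta signaling, read 110, 153 and 137 in tumor-bearing samples and 73.2, 63.3 and 66.1 in control samples. Its log2 fold change was 0.96 (adjusted p = 0.059) under the deposited and 1.37 (adjusted p = 0.028) under the scaling to 4 genes. Scaled to the positive controls it was -0.06, without a call. Ptgir, the prostacyclin receptor, read 42.7, 39.1 and 39.5 in tumor-bearing samples, against 28.0, 23.2 and 25.6 in control samples, with log2 fold changes of 0.64 (adjusted p = 0.098), 1.04 (adjusted p = 0.042) under the scaling to 4 genes and -0.36 under the positive controls. Over the alternatives the adjusted p ran between 0.0045 and 0.22 for Irf5, between 0.00098 and 0.91 for Smad7 and between 0.026 and 0.47 for Ptgir. Relative to the median gene, Smad7 stood at 1.24 and Ptgir at 0.92 under the deposited scaling.

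The other genes are described by list, since few passed alone. In the list for IL-6 and IL-1 reception 6 of the 12 genes on the panel were kept, all with fold changes below 0 (all 128 genes: 85). Under the scaling to 4 genes 5 of the 6 were below 0 (all 128 genes: 52). The list median was -1.48 (all 128 genes: -0.28), or -1.08 under the scaling to 4 genes (all 128 genes: 0.12). Stat3 was the 1 that passed (all 128 genes: 4.69%). Il6ra, the IL-6 receptor chain, read 27.1, 32.4 and 41.7 in tumor-bearing samples, against 77.2, 74.2 and 213 in control samples (log2 fold change -1.66, adjusted p = 0.071). Myd88, the adaptor of IL-1 and Toll-like receptors, read 19.4, 18.9 and 17.7 in tumor-bearing samples and 109, 32.4 and 87.6 in control samples (-1.81, adjusted p = 0.064). Neither gene passed, and the tumor-bearing values of Myd88 were all under the filter limit. Myd88 was thus kept through its control samples alone, and its part in the median and count of this list supports nothing. Cebpb, an acute-phase transcription factor, had a fold change of -0.65 and Il1r1, the IL-1 receptor, of -1.31.

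The complement lists held the 2 lowest fold changes. Of the classical and lectin genes 7 of 9 were kept, and 1, C4a, passed (all 128 genes: 4.69%). The median of this list was -1.70 under the deposited scaling and -1.31 under the scaling to 4 genes. Without control A that median was -1.01. C1qa and C1qb, chains of the C1q complex made largely by macrophages, had fold changes of -2.20 and -2.25 and adjusted p of 0.079 and 0.083. Masp1, a lectin pathway protease, had the 1 positive value (0.96). Of the C3 and alternative pathway genes 5 of 6 were kept, at a median of -2.17, or -1.28 without control A, and Cfd was the 1 that passed (all 128 genes: 4.69%). C3, the central component, read 404, 276 and 667 in tumor-bearing samples and 4557, 2059 and 1256 in control samples (-2.43, adjusted p = 0.059). C7, of the terminal complex, was 136, 114 and 338 in tumor-bearing samples, against 90.1, 96.0 and 79.0 in control samples, with a fold change of 0.98 that did not pass.

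The marker lists share genes with the complement lists, so they are not separate evidence. C1qa and C1qb are among the macrophage markers, and C1ra, C1s, C3, C7 and Masp1 among the connective tissue markers. Of 10 macrophage and monocyte markers 8 were kept, all 8 with fold changes below 0 under both scalings. Over all 128 genes 85 were below 0 under the deposited scaling and 52 under the scaling to 4 genes. The median of the markers was -1.55, or -0.87 without control A. None of the 8 passed in limma. An unadjusted p under 0.05 was reached by 5 of the 8 under the deposited scaling (all 128 genes: 32.8%) and by 2 under the scaling to 4 genes (all 128 genes: 33.6%). Their summed signal was 471, 363 and 741 in tumor-bearing samples, against 4326, 929 and 1176 in control samples. Control A held by far the most. Under the scaling to 4 genes the groups overlapped, with a sum of 911 in tumor-bearing C and 872 in control B. The 7 connective tissue markers summed to 890, 710 and 1404 in tumor-bearing samples and 6615, 2839 and 1864 in control samples. Under the scaling to 4 genes these sums overlapped too, with 1727 in tumor-bearing C and 1538 in control C. Of the 6 kept, 4 had fold changes below 0 and 2, C7 and Masp1, above 0. The lowest was Mmp3, a matrix metalloproteinase of fibroblasts, with -4.28 (adjusted p = 0.071), or -3.41 without control A. Neutrophil, lymphocyte and liver markers had no gene kept. The part of these cell types in the fold changes of complement and receptor genes was not tested.

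Of the p38 and JNK cascade 12 of 14 genes were kept. Their median was 0.30 under the deposited scaling, 0.71 under the scaling to 4 genes and 0.20 without control A. Map2k6 was the 1 that passed (all 128 genes: 4.69%). Rps6ka5, a kinase downstream of p38, read 105, 121 and 91.8 in tumor-bearing samples and 37.7, 71.7 and 46.3 in control samples (1.06, adjusted p = 0.077, and 0.04 scaled to the positive controls). Map3k7, or TAK1, had a fold change of 0.65 and Mapkapk2 of 0.56. Jun, a target of JNK, had a fold change of -0.72, or -1.26 without control A. The Ras and ERK list, with 10 of 12 genes kept, had a median of -0.28, equal to that of all genes under the deposited scaling, and Myc was its lowest gene.

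Myc, an immediate early transcription factor, read 42.7, 45.9 and 43.9 in tumor-bearing samples, against 211, 114 and 423 in control samples. The tumor-bearing values lay close together, and the controls varied among themselves without reaching them. The log2 fold change was -2.27 and the adjusted p 0.051. Among 14 immediate early and stress factors 12 were kept, at a median of -0.35, or 0.06 under the scaling to 4 genes, with Maff called under the deposited one. Ddit3, the stress factor CHOP, had the highest fold change of the list at 1.47 (adjusted p = 0.13), with control C, at 289, above tumor-bearing A, at 260.

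Muscle genes had fold changes of both signs. Of 10 genes 9 were kept, with a median of 0.12, which was 0.53 under the scaling to 4 genes and -0.32 without control A. None passed in limma, and 3 of the 9 had an unadjusted p under 0.05 (all 128 genes: 32.8%). Mef2c, named above, had a log2 fold change of 1.16 with the groups apart, and 0.12 scaled to the positive controls. Hdac4, a histone deacetylase that represses MEF2 factors, read 136, 146 and 140 in tumor-bearing samples, against 263, 646 and 373 in control samples (-1.50, adjusted p = 0.059). Hspb1, a small heat shock protein, read 920, 1112 and 980 in tumor-bearing samples and 1112, 3036 and 9342 in control samples. Control A lay within the tumor-bearing range and the other controls above it. The fold change was -1.66 with all samples and -2.41 without control A, where Hspb1 passed (adjusted p = 0.029; 0.013 to 0.37 over 18 alternatives). Control A was picked out by these same values, and leaving it out removes the control within the tumor-bearing range. That call of Hspb1 therefore supports nothing. Hspb2, its relative, had a fold change of 0.77.

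Interferon genes had no common direction. Of 18, 10 were kept, at a median of -0.16, which turned to 0.24 under the scaling to 4 genes and to 0.47 without control A. None passed in limma under the deposited scaling, with 3 of the 10 at an unadjusted p under 0.05 (all 128 genes: 32.8%). Mx1, an antiviral GTPase, read 147, 104 and 80.9 in tumor-bearing samples and 70.8, 25.7 and 24.7 in control samples (1.56, adjusted p = 0.083). Ifi27l2a, another interferon-induced gene, read 64.8, 109 and 166 in tumor-bearing samples, against 3055, 1172 and 287 in control samples (-3.25, adjusted p = 0.071, and -2.45 without control A). Of 19 chemokines 5 were kept. Ccl8 read 10.3, 18.9 and 26.4 in tumor-bearing samples and 1997, 134 and 61.8 in control samples (-3.81, adjusted p = 0.10, and -2.33 without control A), so most of its control mean came from control A. Ccl21a, a lymph vessel chemokine, had a fold change of -1.69 (adjusted p = 0.059). Of 12 genes for NF-kB and TNF receptor adaptors 8 were kept, with Rela (-1.12), Relb (-1.43) and Traf2 (-1.07) lowest and adjusted p of 0.059, 0.071 and 0.077.

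**Figure D3:**
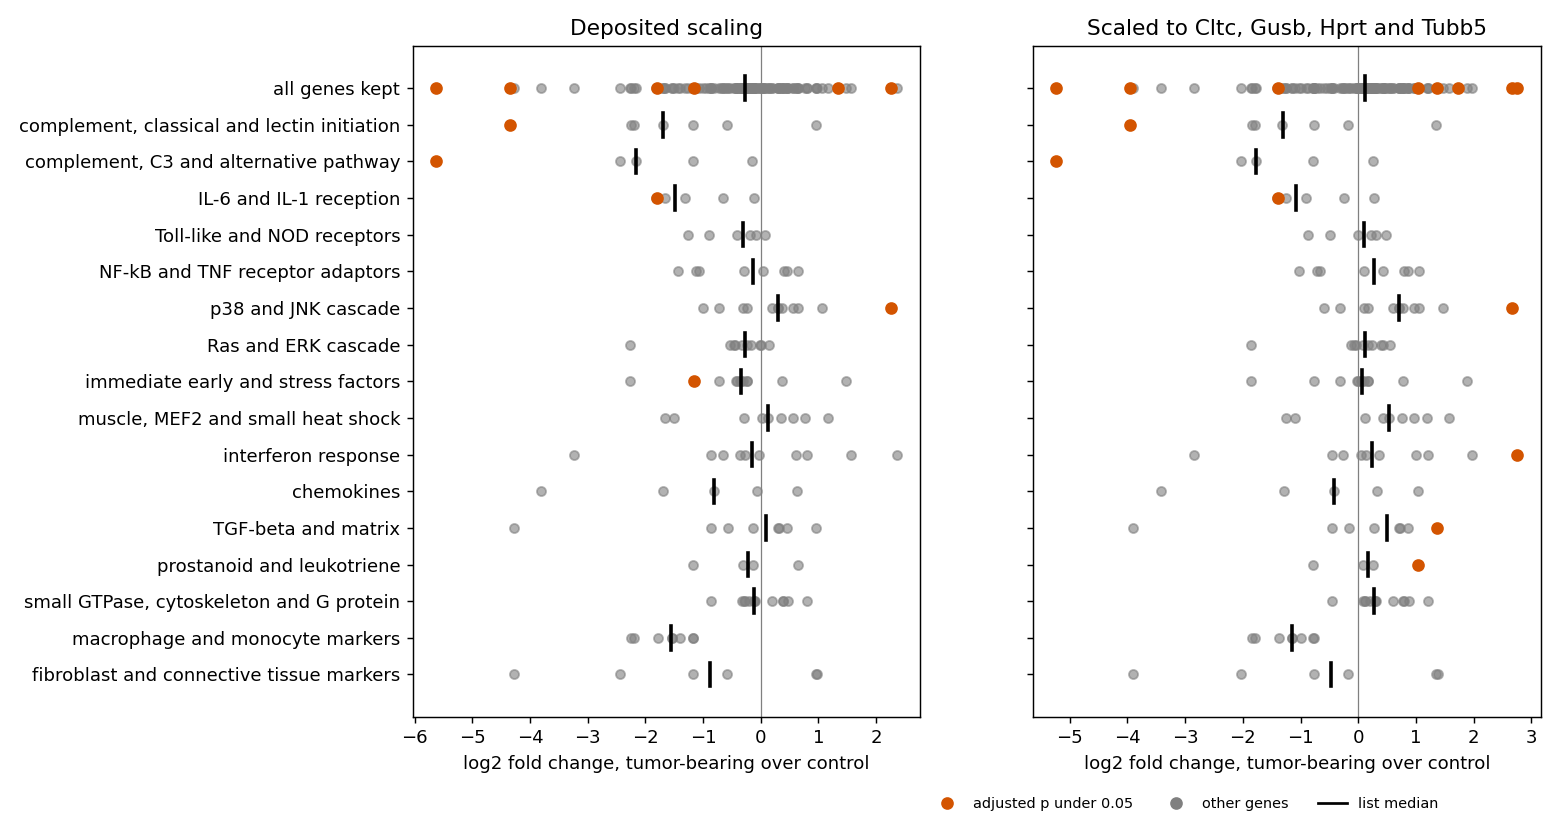
Log2 fold changes (tumor-bearing over control) of the genes kept are plotted by list under the deposited scaling (left) and the scaling to 4 genes (right), with list medians as bars and called genes in orange. The scaling moves the median of all genes kept to the right, between -0.28 and 0.12, and leaves the medians of both complement lists shown, of IL-6 and IL-1 reception and of the macrophage markers below 0 on both sides.

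Leaving out control A changed the count of calls more than any other single sample did. Without it 27 genes passed (21.1%), 8 higher (6.25%) and 19 lower (14.8%), among them all 6 of the calls made with it, and the median fold change was -0.24. Under the scaling to 4 genes 13 passed without control A (10.2%), 9 higher (7.03%) and 4 lower (3.12%). Under the deposited scaling the added calls included Irf5 (2.96), Mx1 (2.05) and Iigp1 (1.79), an interferon-induced GTPase. Without control A the remaining Irf5 controls, 13.1 and 13.5, were under the filter limit. Irf5 then passed the filter through the tumor-bearing samples alone, so its call there supports nothing. Lower among the added calls were C1qa (-1.50), C1qb (-1.48), C3 (-1.93), Hdac4 (-1.80), Il6ra (-1.89), Cebpb (-0.92), Jun (-1.26), Rela (-1.31) and Relb (-1.74). Without control A under the scaling to 4 genes, Irf5, Mx1 and Iigp1 passed in limma (adjusted p = 0.0053 each). None of the lower genes named here did, with adjusted p between 0.055 for Hdac4 and 0.11 for Cebpb. Iigp1 read 75.2, 103 and 93.9 in tumor-bearing samples, against 200, 21.5 and 29.9 in control samples, so that control A alone was above the tumor-bearing range. Control A was picked out by these same values, so the calls added without it are no separate support. Without any 1 of the 3 tumor-bearing samples no gene passed in limma, while 25 to 32 had an unadjusted p under 0.05.

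**Figure D4:**
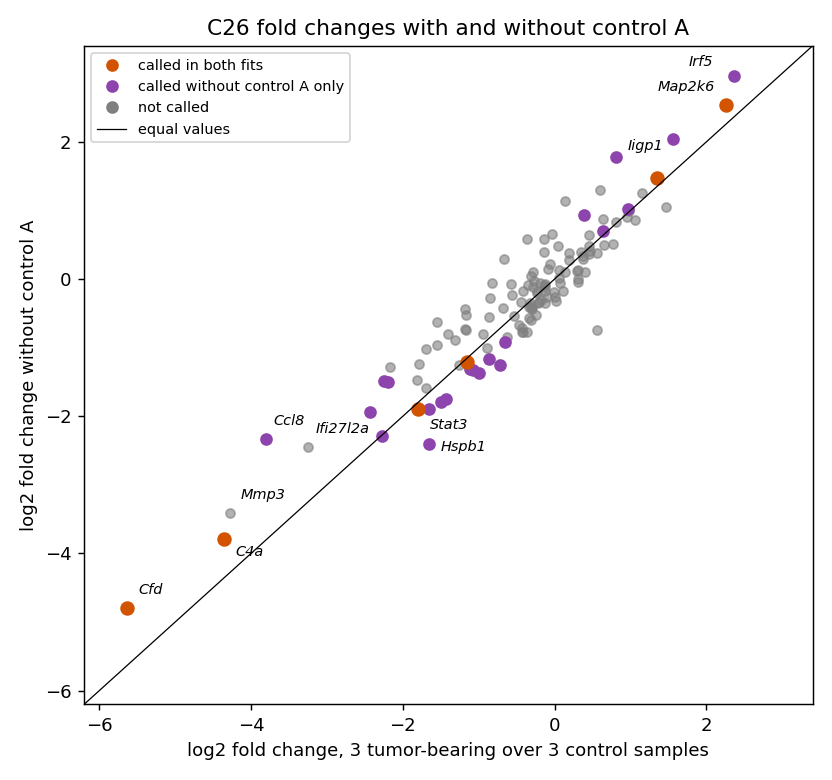
Log2 fold change of each of the 128 genes kept over all 6 C26 samples (horizontal axis) and without control A (vertical axis), with genes called in both fits in orange, those called without control A in purple and equal values on the line. Cfd, C4a and Ccl8 are closer to 0 without control A, and Hspb1 and Irf5 are farther from it.

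Whether the C26 response differed from that in the other models was tested directly as the C26 log2 fold change minus the mean of the LLC and KPP fold changes, in 1 fit of all 18 samples over the 123 genes above the limit in each model. Each model was scaled on its own, so fold changes and not levels were compared. Strain, tumor type and the controls differ between C26 and the other models and cannot be told apart. The directions also rest on the C26 labels, in a group where control A stood apart from the other controls. In 35 of the 123 genes (28.5%) the difference passed, 10 higher in C26 (8.13%) and 25 lower (20.3%), and 43 passed (35%) under the scaling to 4 genes, with 25 higher (20.3%) and 18 lower (14.6%). In 21 of the 35 both LLC and KPP had a fold change opposite in sign to that of C26, against 43 of all 123 genes. The 35 were picked by this difference, which itself favors opposite signs, so the larger share among them supports nothing.

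Stat3 had log2 fold changes of -1.80 in C26, 0.25 in LLC and 0.46 in KPP, a difference of -2.15 ± 0.28 (SE, adjusted p = 0.00015). Its C26 fold change was opposite in sign to both others, but the Stat3 groups overlapped in LLC and in KPP. In LLC tumor-bearing B read 285 and control A 337, and in KPP tumor-bearing C read 1314 and control B 1320. The LLC and KPP fold changes given here were not tested on their own, only the difference from C26. Map2k6 had 2.26 in C26, -0.61 in LLC and -2.61 in KPP (difference 3.87 ± 0.52, adjusted p = 0.00015). Irf5 likewise had 2.36 in C26, -1.25 in LLC and -1.32 in KPP (difference 3.65, adjusted p = 0.0016). Myc had -2.27 in C26, 0.86 in LLC and 1.46 in KPP, and Il6ra had -1.66 in C26, 0.73 in LLC and 2.27 in KPP, both with an adjusted p of 0.0016. The fold changes of Il6ra, Stat3 and Myc were thus lower in C26 than in the other models, and those of Map2k6 and Irf5 higher. C4a, with -4.35 in C26, 0.53 in LLC and -0.14 in KPP, differed by -4.54 (adjusted p = 0.0016). Cfd, with -5.63 in C26, -0.03 in LLC and -1.93 in KPP, differed by -4.66 (adjusted p = 0.0026). The housekeeping ratio, 1.23 in C26, was -0.17 in LLC and -0.61 in KPP.

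**Figure D5:**
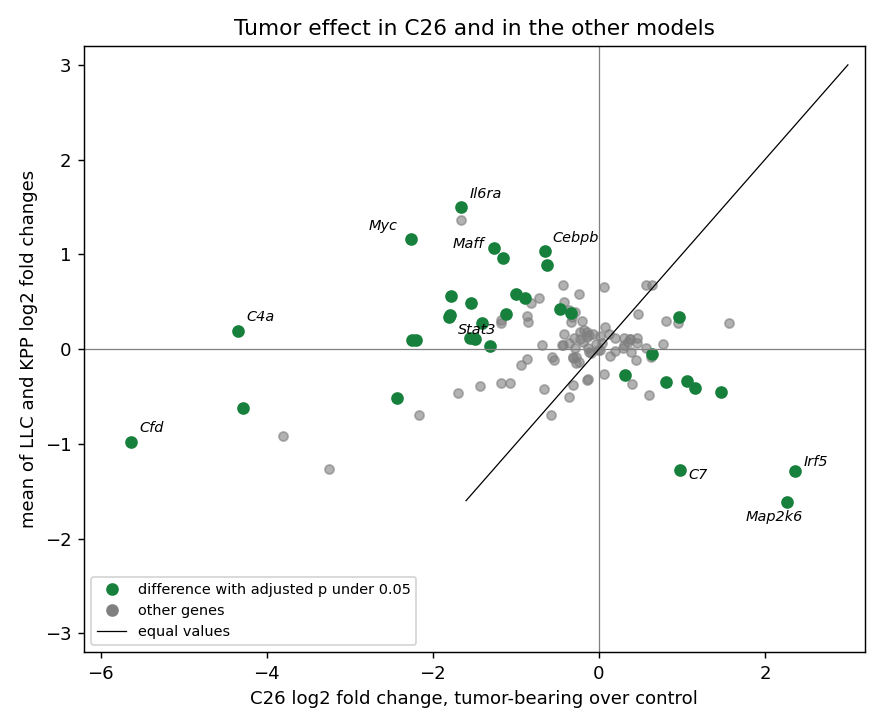
Log2 fold change (tumor-bearing over control) of 123 genes in C26 (horizontal axis) against the mean of the LLC and KPP fold changes (vertical axis), with differences at an adjusted p under 0.05 in green. Stat3, Myc, Il6ra and C4a lie at the upper left, Map2k6 and Irf5 at the lower right, away from the line of equal values.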

How the data were processed

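Groups and letters were taken from the sample titles. The table deposited by the authors holds a normalized signal of each probe (how it was normalized: not given in the sources used here). Read from the values, the 6 housekeeping genes have 1 geometric mean per model, and low values lie on steps of 1 count (100% within 0.1 of a step), which gave the counts. LLC values under 20 were written as 20. Names were matched to RefSeq (GRCm38.p6), 6 of them through an older synonym.

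Genes at 20 or more in at least 3 of the 6 C26 samples were kept. Values were taken as log2(value + 1), so fold changes of low genes are understated. limma 3.58.1 in R 4.3.3 (lmFit, eBayes) fitted the 6 samples without covariates, 3 against 3, two-sided, with Benjamini-Hochberg adjustment over 128 genes at 0.05, and every adjusted p in the text comes from limma. The script was tested on simulated data. Named genes were those called under either scaling, the 25 smallest p under each, list members and housekeeping genes. Members and lists were chosen with earlier results of these data known. Alternatives were other pseudocounts, filters, scalings, moderation, a replicate block, a shared spread and leaving out samples. Same-letter deviations correlated at 0.088, 0.181 and -0.335, so letters were not treated as pairs. Counting errors cover counting only.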

Additional observations from a re-analysis of the deposited data

Results flagged for a closer look

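Of the 9 genes called in C26 under either scaling, 7 also passed the test of the difference from the other 2 models. Nos2 was not among the genes compared. Over all genes compared, 35 of 123 passed (28.5%). The calls in C26 used the same C26 values that enter the difference, so a higher share among them is no separate support. The C26 log2 fold change minus the mean of the LLC and KPP fold changes was -4.66 for Cfd, -4.54 for C4a, -2.15 for Stat3 and -2.12 for Maff, and 3.87 for Map2k6, 3.65 for Irf5 and 0.62 for Smad7. Maff was kept through its C26 control samples alone, so its difference is given as a value and supports nothing. For Smad7 all 3 models had a positive fold change, 0.96 in C26, 0.23 in LLC and 0.45 in KPP, while Map2k6 and Irf5 were positive in C26 alone. Leaving out control A gave differences of -3.82 for Cfd, -3.99 for C4a, -2.25 for Stat3, -2.17 for Maff, 4.15 for Map2k6, 4.25 for Irf5 and 0.68 for Smad7. Strain, tumor and the C26 controls cannot be told apart in these differences.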

How the results depend on the processing

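Of 6 genes called in C26 (2 higher, 4 lower), the count stayed between 4 and 6 with pseudocounts of 5 or 20, no filter, a minimum of 50, or trend and robust moderation, but pseudocount 20, no filter, the minimum of 50 and that moderation left 1 higher. The scaling to 4 genes gave 8 (5 higher, 3 lower), median centring 6 (4 higher, 2 lower), quantile normalization 14 (8 higher, 6 lower) and a spread shared over all 18 samples 44 (15 higher, 29 lower). With the letters as a replicate block 2 genes passed, 0 higher and 2 lower, of which 1 was among the 6, and 37 had an unadjusted p under 0.05. Letters share only a name here. Leaving out 1 sample at a time gave 0 to 27 calls, 0 to 8 higher and 0 to 19 lower: 27 without control A, 10 without control C, 5 without control B and 0 without any tumor-bearing sample. Alternatives chosen after seeing the data were counts scaled to the 4 positive controls, with 69 calls (1 higher, 68 lower), and the scaling to 4 genes without control A, with 13 (9 higher, 4 lower). The cause of these shifts was not tested, other than fewer samples or genes.

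The count of differences from LLC and KPP, 35, was 26 to 43 under the other settings, 26 with the letters as a replicate block, and 21 to 43 when 1 C26 sample was left out, lowest without tumor-bearing B. The housekeeping ratio difference, 1.23, was 1.08 to 1.39. None of the 6 genes called under the deposited scaling changed sign under any of these settings. Depth limits low genes such as Nos2 and Maff, at 8 to 49 counts.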

Other observations

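Several lists not described above held close to the median of all genes. Of 15 genes for small GTPases, the cytoskeleton and G proteins 13 were kept, at a median log2 fold change of -0.12 under the deposited scaling and 0.28 under the scaling to 4 genes, and none passed in limma (2 of the 13 had an unadjusted p under 0.05, against 32.8% of all genes). Prkca, a protein kinase C, read 258, 275 and 405 in tumor-bearing samples, against 180, 222 and 133 in control samples (0.81, adjusted p = 0.13). Cfl1, an actin-severing protein, read 308, 345 and 364 in tumor-bearing samples and 945, 458 and 539.8 in control samples (-0.86, adjusted p = 0.13). Of 16 Toll-like and NOD receptor genes 6 were kept. Tlr4, the endotoxin receptor, read 37.5, 43.6 and 65.6 in tumor-bearing samples, against 118, 89.3 and 147 in control samples, without overlap (-1.27, adjusted p = 0.059). Of the 2 endothelial markers, Flt1, a VEGF receptor, had a fold change of 0.06 and Ptgir of 0.64, and their summed signal overlapped between the groups under the deposited scaling. Under the scaling to 4 genes it was 302, 335 and 290.0 in tumor-bearing samples, against 195, 221 and 218.5 in control samples, without overlap. Under that scaling 33 of all 128 genes (25.8%) were higher without overlap. Scaled to the positive controls, Flt1 had a fold change of -0.97 and Ptgir of -0.36.

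Samples were also ranked against the other models. Over 123 genes, which share the panel and its probes, the median Spearman rho with each LLC and KPP group was taken. For C26 tumor-bearing samples it lay between 0.91 and 0.93 with the control groups and between 0.87 and 0.92 with the tumor-bearing groups. In each of these samples it was higher with the control group of either model. For control A it lay between 0.57 and 0.75, and for controls B and C between 0.82 and 0.90. Controls A, B and C had 0.75, 0.90 and 0.85 with LLC tumor-bearing and 0.72, 0.89 and 0.84 with LLC control samples. They had 0.57, 0.83 and 0.86 with KPP tumor-bearing and 0.69, 0.88 and 0.82 with KPP control samples. The cause of these differences was not tested.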
